A study of Mus musculus with 18 samples.

Results

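Epithelial junction and polarity genes were followed through a knockdown of Rnf185, which encodes a ubiquitin ligase of the endoplasmic reticulum membrane. The set was a list of 42 symbols for desmosome, adherens junction, tight junction, gap junction and polarity proteins. It was drawn up by name, with earlier results of these data known. All 42 matched an Ensembl identifier among the 47643 genes of the count table. Counts were high enough to test 35 of them, out of 14309 genes tested in all. The other 7 (Dsg2, Nectin4, Cldn6, Cldn7, Epcam, Tjp3 and Crb3) had between 0 and 7 counts in any library.

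Adherens junctions join neighbouring epithelial cells through cadherins, whose cytoplasmic tails bind catenins and, through them, actin. Desmosomes use desmosomal cadherins that bind plakoglobin and plakophilins, and these bind desmoplakin, which anchors keratin filaments. Tight junctions seal the space between cells with claudins and occludin on a scaffold of zonula occludens proteins, and the Par and Crumbs complexes set their position along the side of the cell. Gap junction connexins form channels between neighbours. In prostate epithelium these contacts hold luminal and basal cells in a sheet, and carcinoma cells can carry them to varying degrees.

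RNA was measured in 18 libraries of MPC3, a mouse cell line that the series uses as a prostate cancer model, with 6 libraries in each of 3 groups. The control group carries plko in its titles and control as its treatment, and what its vector expresses is not given in the labels. The other groups carry shRNF185.1 or shRNF185.3, each a short hairpin RNA against Rnf185, which is a construct that lowers the messenger RNA it matches. Both knockdown groups are compared with the same 6 control libraries, so the comparisons are not independent. The labels place 2 libraries of every group in each of 3 batches and give no genotype, time or clone for any group. They do not say whether libraries of a group came from separate cultures, so p-values measure the spread between these libraries, which may be technical.

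Total counts ranged from 22027395 to 43379662 per library, and a floor of 3 counts equals 0.0692 to 0.136 CPM in these libraries (CPM, counts scaled to a common library size). Rnf185 itself, the targeted gene, ran from 33.6 to 38.4 CPM in control libraries, from 5.21 to 6.80 in those of shRNF185.1 and from 5.19 to 6.72 in those of shRNF185.3, and no library went against its label. Of 20 epithelial markers 12 were tested, and Esrp1 had 0 counts in every library. Among prostate markers Hoxb13 and Foxa1 were tested, while Pbsn had 0 counts. None of 5 endothelial markers reached the test, with a summed level of at most 0.744 CPM, and 8 leukocyte markers summed to 1.84 to 5.16 CPM, with Cd3e at 0. Most of the leukocyte sum came from Cd68, with 1428 counts over all 18 libraries. The other 7 averaged under 0.136 CPM in each group. RNA came from whole samples, so fewer cells of a kind and less RNA per cell cannot be told apart in any value here.

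Start sites of 28 of the 42 genes had an entry in the RefSeq promoter table (GRCm38.p6). The 250 bases upstream of the start are shown for 7 genes whose values the results below turn on. These are 5 that were lower with each hairpin and the listed claudins Cldn3 and Cldn4, which separated the hairpins. Sequences run 5′ to 3′ on the gene's strand, and capitals mark CAGGTG or its reverse complement CACCTG, the E-box bound by zinc-finger factors of the Snail and Zeb families.
Dsp (chr13:38151044-38151293, plus strand): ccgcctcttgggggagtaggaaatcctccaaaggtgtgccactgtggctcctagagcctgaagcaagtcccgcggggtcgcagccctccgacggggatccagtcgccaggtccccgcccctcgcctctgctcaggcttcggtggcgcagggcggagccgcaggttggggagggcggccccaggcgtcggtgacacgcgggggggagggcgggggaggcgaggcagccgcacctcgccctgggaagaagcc
Jup (chr11:100397791-100398040, minus strand): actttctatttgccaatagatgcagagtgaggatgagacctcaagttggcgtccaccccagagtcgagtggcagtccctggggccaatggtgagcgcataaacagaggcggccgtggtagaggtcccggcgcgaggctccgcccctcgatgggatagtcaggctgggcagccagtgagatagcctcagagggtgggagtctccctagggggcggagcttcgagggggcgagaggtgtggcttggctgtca
Cgn (chr3:94786483-94786732, minus strand): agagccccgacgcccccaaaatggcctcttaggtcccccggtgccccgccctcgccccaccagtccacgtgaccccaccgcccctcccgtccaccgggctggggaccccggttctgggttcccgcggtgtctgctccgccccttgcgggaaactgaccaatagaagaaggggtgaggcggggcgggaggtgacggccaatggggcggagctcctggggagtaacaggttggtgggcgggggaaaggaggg
Gjb2 (chr14:57104703-57104952, minus strand): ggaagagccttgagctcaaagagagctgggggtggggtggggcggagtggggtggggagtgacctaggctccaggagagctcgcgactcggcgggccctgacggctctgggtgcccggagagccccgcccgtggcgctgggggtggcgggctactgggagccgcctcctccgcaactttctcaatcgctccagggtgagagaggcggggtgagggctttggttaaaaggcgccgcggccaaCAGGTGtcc
Pard6b (chr2:168080754-168081003, plus strand): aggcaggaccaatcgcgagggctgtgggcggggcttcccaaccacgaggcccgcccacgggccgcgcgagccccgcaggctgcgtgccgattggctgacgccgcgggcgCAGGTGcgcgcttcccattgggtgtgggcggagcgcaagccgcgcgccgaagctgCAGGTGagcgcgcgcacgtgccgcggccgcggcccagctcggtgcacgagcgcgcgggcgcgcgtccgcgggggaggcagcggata
Cldn3 (chr5:134985964-134986213, plus strand): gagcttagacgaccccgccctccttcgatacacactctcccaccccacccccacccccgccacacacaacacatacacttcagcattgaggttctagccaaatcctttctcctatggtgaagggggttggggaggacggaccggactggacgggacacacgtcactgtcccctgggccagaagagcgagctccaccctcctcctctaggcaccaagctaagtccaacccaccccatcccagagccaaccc
Cldn4 (chr5:134946935-134947184, minus strand): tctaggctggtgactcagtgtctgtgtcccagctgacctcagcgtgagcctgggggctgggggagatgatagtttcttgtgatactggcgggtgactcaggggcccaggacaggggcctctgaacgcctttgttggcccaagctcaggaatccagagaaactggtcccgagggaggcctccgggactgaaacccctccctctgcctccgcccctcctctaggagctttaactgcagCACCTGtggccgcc
The E-box letters occur once in the Gjb2 and Cldn4 stretches, with the first base 9 and 14 bases before the start, and at 141 and 86 bases before it in Pard6b. The stretches of Dsp, Jup, Cgn and Cldn3 do not hold these letters. Counting both strands, 14 of the 28 listed genes (50%) held the motif at 1 or more of their starts, against 19.4% of all 27025 genes of the table. Among genes with enough counts to test, it was in 9 of 22 listed genes (40.9%) and in 17.6% of all 10067 with an entry. Of the 9 listed genes called with each hairpin in the same direction, 4 (44.4%) held it. These were Gjb2, Pard6b and Patj, which fell, and Pard3, which rose. The 9 also included Afdn, which rose and did not hold it. A gene with more starts has more chances to hold a motif. The 28 listed genes had 41 starts, and the 27025 genes had 32851. Among tested genes, the 22 listed had 32 starts and the 10067 had 12868. The median GC content was 63.6% over the 32 starts of the listed genes and 60.0% over the 12868 starts. Among tested genes the GC box GGGCGG was in 90.9% of the listed ones and 63.9% of all, and the TATA box letters TATAAA were in 18.2% and 8.15%. These motif counts describe the letters in the windows only, and no binding was measured.

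Perp, Cdh1, Gjb2 and Dsp fell most among the listed genes with each hairpin, and Jam3 rose with each. Ppl rose with shRNF185.1, and Cldn3 and Cldn4 fell with shRNF185.3. A gene was called when its adjusted p from edgeR's quasi-likelihood test, over all tested genes, was under 0.05. With shRNF185.1, 19 of the 35 tested genes were called against 28.9% of all genes tested. Of these, 14 fell and 5 rose, where 14.3% of all genes fell and 14.6% rose. With shRNF185.3, 15 of 35 were called against 27.3% of all genes, 12 lower and 3 higher, where 13.1% of all genes were lower and 14.2% higher. The median log2 fold change of the listed genes was -0.16 in the shRNF185.1 comparison and -0.08 in the shRNF185.3 comparison, and that of all genes tested was -0.02 in both comparisons. By ranges alone, 11 listed genes did not overlap between shRNF185.1 and control (7 below and 4 above), where 12.8% of all genes did not. Against control, 12 did not overlap with shRNF185.3 (10 below and 2 above), where the figure for all genes was 13.3%.

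**Figure D1:**
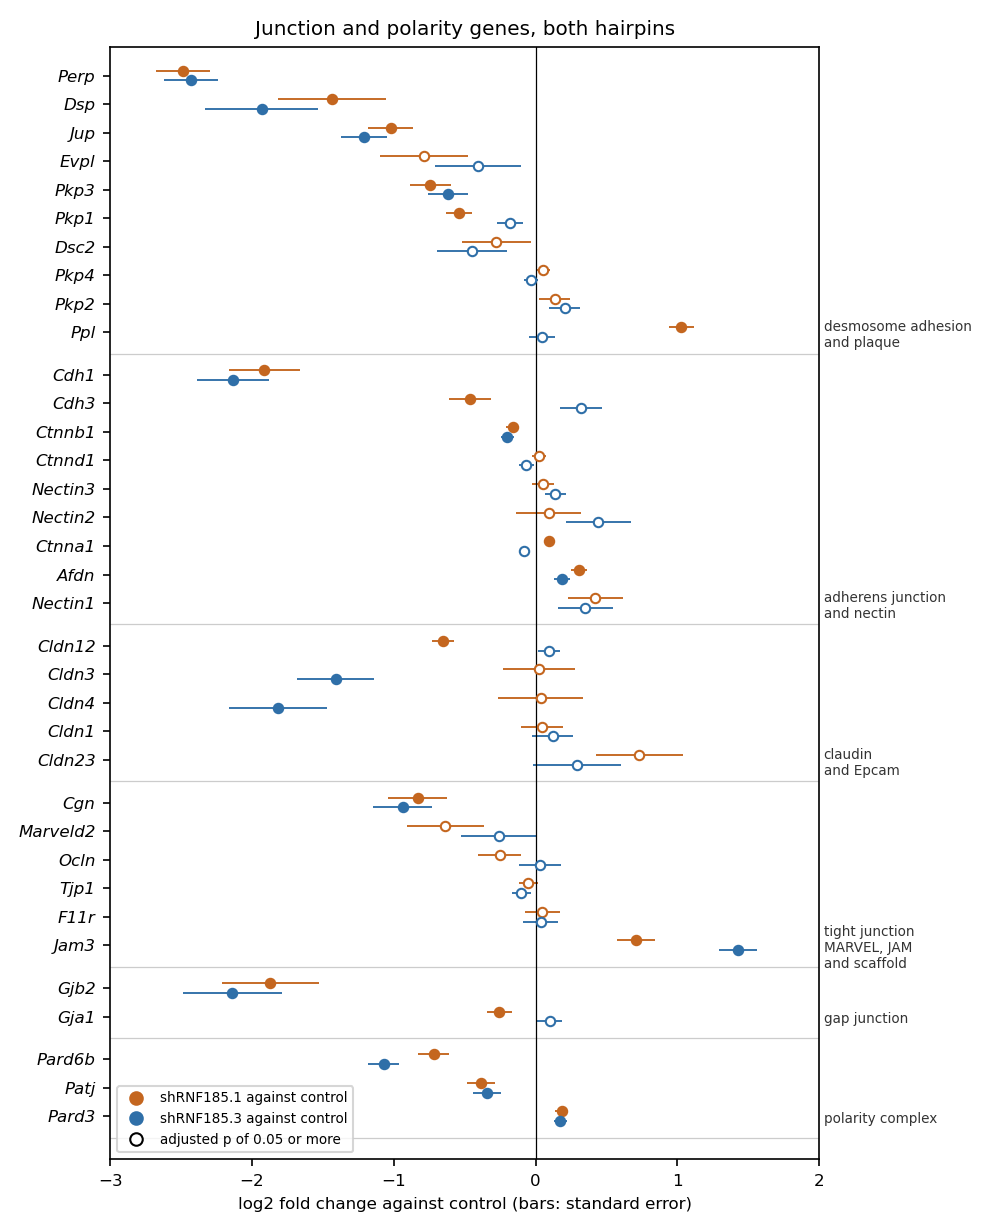
Log2 fold change against control (x axis) of the 35 tested junction and polarity genes, grouped by role, with 1 row for each gene. Orange points are shRNF185.1, blue points shRNF185.3, bars are the standard error, and filled points passed an adjusted p of 0.05. Perp, Cdh1, Gjb2 and Dsp lie farthest left for both hairpins, and Jam3 lies to the right for both.

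Levels between genes were compared per kilobase of exon. In control libraries the catenins stood highest, with Ctnnb1 at 219 and Ctnna1 at 56.3 CPM per kb, followed by Ctnnd1 at 32.4, F11r at 27.8, Tjp1 at 24.1 and Pkp1 at 23.2 CPM per kb. The range of F11r overlapped with those of Ctnnd1, Tjp1 and Pkp1, so its place among them is within the spread, as is the order of Tjp1 and Pkp1. Perp stood at 11.6 and Cdh1 at 7.66 CPM per kb in control. At the low end were Dsp at 0.176 and Evpl at 0.122 CPM per kb, with 28 to 76 and 9 to 40 counts per control library. Desmosomes also need cadherins, and those were scarce, with Dsg2 at 11 counts over all 18 libraries and Dsc2 at 1.39 ± 0.371 CPM in control (SD, n = 6).

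**Figure D2:**
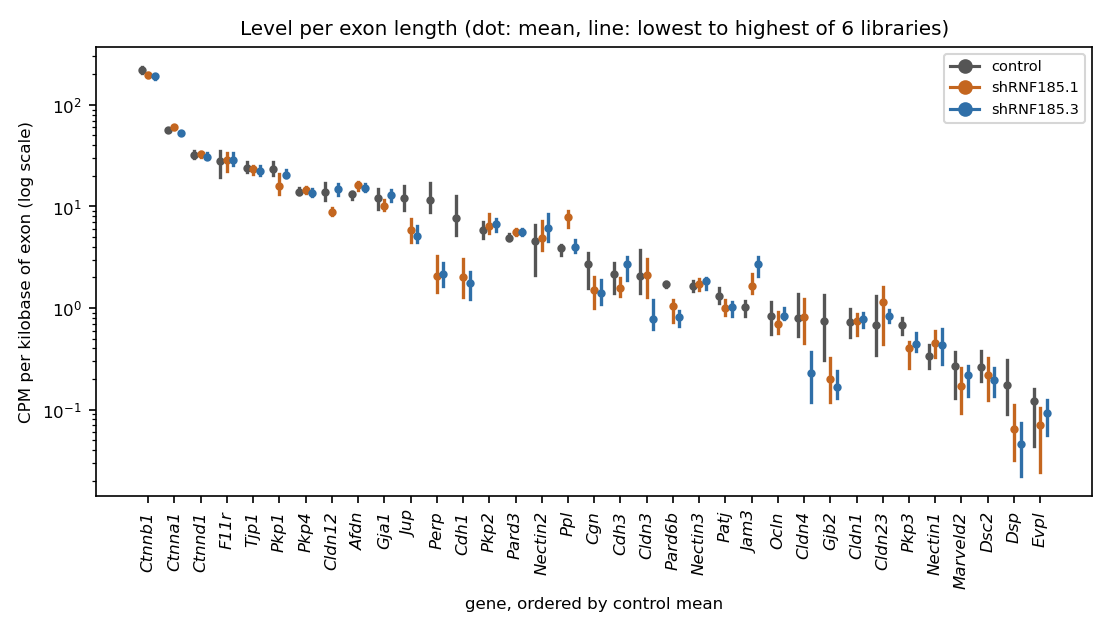
CPM per kilobase of exon on a log scale (y axis) for each tested gene (x axis, ordered by the control mean). Dots are group means and lines run from the lowest to the highest of 6 libraries. Ctnnb1 tops the order near 219 CPM per kb in control, and Dsp at 0.176 and Evpl at 0.122 close it.

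Perp (ENSMUSG00000019851, chr10:18845020-18857073), a p53-induced tetraspan protein of desmosomes, fell most among the desmosomal genes. The lowest, median and highest control libraries held 17.2, 21.2 and 33.4 CPM. Those of shRNF185.1 held 2.78, 3.65 and 6.38 CPM and those of shRNF185.3 held 3.24, 4.35 and 5.38 CPM. Every knockdown library lay below every control library. Its mean was 17.8% of control with shRNF185.1 (log2 fold change -2.49, SE 0.19, adjusted p = 2.46e-08) and 18.6% with shRNF185.3 (-2.43, SE 0.19, adjusted p = 4.0e-08).

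Jup (ENSMUSG00000001552, chr11:100368958-100397763) encodes plakoglobin, an armadillo protein shared by desmosomes and adherens junctions. Control libraries ran from 59.0 to 101 CPM with a median of 75.1. With shRNF185.1 they ran from 28.7 to 49.0 (median 37.8) and with shRNF185.3 from 28.8 to 41.8 (median 31.1). Neither knockdown group overlapped with control. The log2 fold changes were -1.02 (SE 0.16, adjusted p = 8.58e-05) for shRNF185.1 and -1.21 (SE 0.16, adjusted p = 1.53e-05) for shRNF185.3.

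Dsp (ENSMUSG00000054889, chr13:38151294-38198577), desmoplakin, was read from few counts, 6 to 76 per library. Control libraries ran from 0.879 to 2.97 CPM (median 1.43), those of shRNF185.1 from 0.310 to 1.08 (median 0.562) and those of shRNF185.3 from 0.215 to 0.706 (median 0.426). All 6 libraries of shRNF185.3 and 5 of 6 of shRNF185.1 lay below every control library. The log2 fold changes were -1.44 (SE 0.38, adjusted p = 0.00749) for shRNF185.1 and -1.93 (SE 0.40, adjusted p = 0.00127) for shRNF185.3. Exons of Dsp overlap a gene on the other strand over 499 of 9659 bases, and whether counting used strand is not given in the sources used here.

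The plakophilins, armadillo proteins of the desmosomal plaque, did not move alike. Pkp3 ran from 2.02 to 2.90 CPM in control (median 2.39), from 0.931 to 1.68 with shRNF185.1 (median 1.54) and from 1.37 to 2.04 with shRNF185.3 (median 1.49). It fell by 0.74 (SE 0.14, adjusted p = 0.00063) and by 0.62 (SE 0.14, adjusted p = 0.00299) on the log2 scale, with all 6 libraries of shRNF185.1 and 5 of 6 of shRNF185.3 below the control range. Pkp1, the most abundant plakophilin per kilobase, fell with shRNF185.1 from 103 to 139 CPM in control (median 113) to 66.0 to 105 (median 77.6), a log2 fold change of -0.54 (SE 0.09, adjusted p = 0.000234). With shRNF185.3 it ran from 97.6 to 114 CPM (median 101), and its log2 fold change of -0.18 (SE 0.09, adjusted p = 0.154) did not pass. Pkp2 and Pkp4 were not called, with log2 fold changes between -0.03 and 0.20.

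Ppl went the other way with 1 hairpin. It encodes periplakin, a plakin that links plaques to intermediate filaments. Control libraries ran from 22.7 to 29.1 CPM (median 27.5), those of shRNF185.1 from 43.5 to 62.5 (median 54.3) and those of shRNF185.3 from 24.5 to 32.0 (median 26.5). All 6 libraries of shRNF185.1 lay above both other groups. Ppl rose 2.04-fold with shRNF185.1 (log2 fold change 1.03, SE 0.09, adjusted p = 9.65e-08), and with shRNF185.3 the log2 fold change was 0.04 (SE 0.09, adjusted p = 0.757). The related plakin Evpl, at 0.781 ± 0.305 CPM in control (SD, n = 6), was not called in either comparison, and neither was the cadherin Dsc2.

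**Figure D3:**
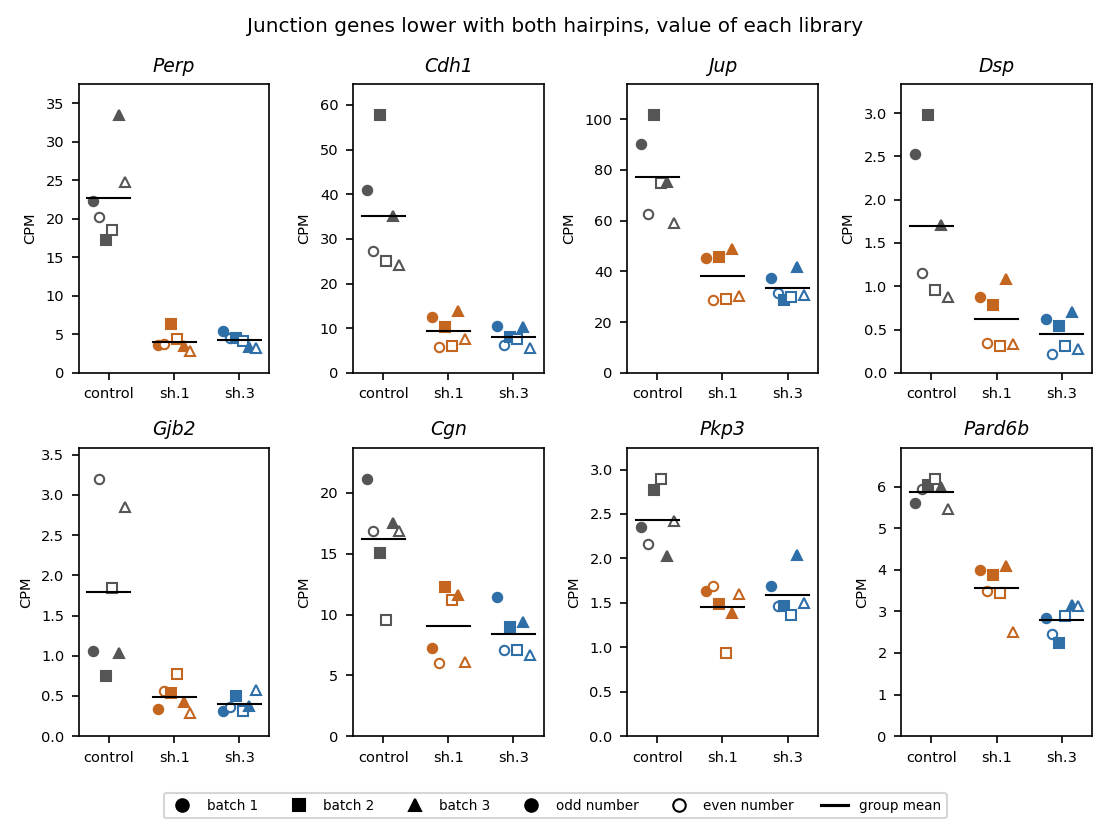
CPM of each library (y axis, from 0) for 8 junction genes, by group (x axis, where sh.1 and sh.3 stand for shRNF185.1 and shRNF185.3). Marker shape gives the batch, filled points are libraries with an odd number in the labels and open points those with an even number, and bars are group means. Knockdown libraries lie below control for each gene, with overlap in Cgn and small overlaps in Dsp, Gjb2 and Pkp3.

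Among adherens junction genes Cdh1 (ENSMUSG00000000303, chr8:106603351-106670246), E-cadherin, fell most. The lowest, median and highest control libraries held 24.2, 31.2 and 57.7 CPM. Those of shRNF185.1 held 5.83, 8.85 and 13.9 CPM and those of shRNF185.3 held 5.63, 7.69 and 10.5 CPM. No knockdown library reached the control range. Its mean was 26.5% of control with shRNF185.1 (log2 fold change -1.91, SE 0.25, adjusted p = 1.37e-05) and 22.8% with shRNF185.3 (-2.13, SE 0.25, adjusted p = 4.85e-06). Within each group and batch the library with the odd number held more Cdh1 than the one with the even number, and the same held for Dsp, Evpl, Afdn, Cldn3, Cgn and Pard3. The labels do not say in what odd and even libraries differ.

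The catenins, which bind cadherin tails, showed small differences. Ctnnb1, β-catenin, ran from 1081 to 1214 CPM in control (median 1115), from 970.0 to 1077 with shRNF185.1 (median 1021) and from 933 to 1024 with shRNF185.3 (median 995). The ranges did not overlap with control, and the falls were small: log2 fold changes of -0.16 (SE 0.04, adjusted p = 0.00805) for shRNF185.1 and -0.20 (SE 0.04, adjusted p = 0.00199) for shRNF185.3. Of 5192 exonic bases of Ctnnb1, 759 overlap exons of a gene on the other strand. Ctnna1, α-catenin, held 357 to 367 CPM in control (median 361), 373 to 396 with shRNF185.1 (median 388) and 336 to 349 with shRNF185.3 (median 341). Its 3 groups did not overlap, with shRNF185.1 highest and shRNF185.3 lowest. The log2 fold change was 0.10 with shRNF185.1 (SE 0.03, adjusted p = 0.0236) and -0.08 with shRNF185.3 (SE 0.03, adjusted p = 0.0552), the second short of the threshold. The call with shRNF185.1 was lost in 7 of 14 alternative fits, among them the fit with batch as a covariate (adjusted p = 0.0539). The difference with shRNF185.3 passed in 4 of 14, with adjusted p from 0.00108 (DESeq2) to 0.0496 (limma-voom). Ctnnd1, p120 catenin, was not called, and 61.2% of its exonic bases are shared with the overlapping gene Gm28635.

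Cdh3, P-cadherin, lies beside Cdh1 on the same chromosome (chr8:106510891-106557297) and differed between the hairpins, while Cdh1 fell with each. Control libraries ran from 6.22 to 12.2 CPM (median 9.82), those of shRNF185.1 from 5.82 to 8.61 (median 6.64) and those of shRNF185.3 from 8.27 to 13.8 (median 12.2). Only 2 libraries of shRNF185.1 lay below the control range, and 3 of shRNF185.3 lay above it. The log2 fold change was -0.46 with shRNF185.1 (SE 0.15, adjusted p = 0.0254) and 0.32 with shRNF185.3 (SE 0.15, adjusted p = 0.115).

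Afdn, afadin, which ties nectins to actin, rose slightly. It ran from 120.4 to 143 CPM in control (median 137), from 149.6 to 178 with shRNF185.1 (median 172) and from 144 to 169.9 with shRNF185.3 (median 152). All knockdown libraries lay above all control libraries. The log2 fold changes were 0.30 (SE 0.06, adjusted p = 0.000454) for shRNF185.1 and 0.19 (SE 0.06, adjusted p = 0.0195) for shRNF185.3. Its partners Nectin1, Nectin2 and Nectin3, cell surface adhesion receptors, were not called with either hairpin, with log2 fold changes between 0.05 and 0.44. Nectin2 was uneven between batches. Within batches 1, 2 and 3 its log2 ratio was -0.40, -0.48 and 1.32 for shRNF185.1, and -0.09, 0.04 and 1.57 for shRNF185.3.

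Among tight junction genes Cgn (ENSMUSG00000068876, chr3:94760069-94786492), cingulin, a plaque protein that binds zonula occludens proteins, fell. Control libraries ran from 9.58 to 21.2 CPM (median 16.9), those of shRNF185.1 from 6.02 to 12.2 (median 9.22) and those of shRNF185.3 from 6.67 to 11.4 (median 8.03). Groups overlapped at the lowest control library, with 3 libraries of shRNF185.1 and 5 of shRNF185.3 below it. The log2 fold changes were -0.83 (SE 0.21, adjusted p = 0.0046) for shRNF185.1 and -0.94 (SE 0.21, adjusted p = 0.00215) for shRNF185.3. Of the 75-base windows in Cgn transcripts, 12.5% also occur in other genes, so its counts may hold reads of these.

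The scaffold gene Tjp1 and the membrane protein genes Ocln, Marveld2 and F11r were not called with either hairpin. Tjp1, which encodes ZO-1, ran from 169.9 to 212 CPM in control (median 186), from 162 to 198 with shRNF185.1 (median 184) and from 160.3 to 195 with shRNF185.3 (median 174). Ocln, occludin, ran from 2.35 to 4.83 CPM in control (median 3.47), from 2.38 to 3.90 (median 2.75) and from 3.28 to 4.23 (median 3.51). The groups overlapped for both genes. The 95% intervals of the log2 fold change were -0.18 to 0.08 and -0.23 to 0.03 for Tjp1, and -0.55 to 0.04 and -0.26 to 0.32 for Ocln, in the order shRNF185.1 and shRNF185.3. For Marveld2 (tricellulin, which seals corners between cells) the log2 fold changes were -0.64 and -0.26, and for F11r (JAM-A, an immunoglobulin-like adhesion receptor) they were 0.05 and 0.03.

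Jam3 (ENSMUSG00000031990, chr9:27097384-27155421), JAM-C, a relative of F11r also present in mesenchymal and endothelial cells, rose. Control libraries ran from 2.66 to 3.77 CPM (median 3.41), those of shRNF185.1 from 4.5 to 6.95 (median 5.08) and those of shRNF185.3 from 6.61 to 10.2 (median 8.92). All knockdown libraries lay above the control range, and 5 of 6 of shRNF185.3 lay above that of shRNF185.1. It rose 1.63-fold with shRNF185.1 (log2 fold change 0.71, SE 0.13, adjusted p = 0.000488) and 2.69-fold with shRNF185.3 (1.43, SE 0.13, adjusted p = 2.29e-07). Of its 3200 exonic bases, 1159 overlap exons of a gene on the other strand, and their reads cannot be told apart if counting ignored strand.

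Claudins are the strand-forming proteins of tight junctions. Of the 5 listed claudins tested, 3 split by hairpin, where 14.7% of all genes were called between the hairpins. Cldn3 ran from 1.76 to 4.71 CPM in control (median 2.37), from 1.63 to 3.86 with shRNF185.1 (median 2.43) and from 0.777 to 1.5 with shRNF185.3 (median 0.854). Cldn4 ran from 0.974 to 2.52 CPM (median 1.29), from 0.814 to 2.25 (median 1.40) and from 0.218 to 0.667 (median 0.362) in the same order. For both genes every library of shRNF185.3 lay below every other library, while shRNF185.1 overlapped with control. With shRNF185.3 Cldn3 fell by 1.41 (SE 0.27, adjusted p = 0.000745) and Cldn4 by 1.82 (SE 0.35, adjusted p = 0.00065) on the log2 scale. With shRNF185.1 the values were 0.02 (SE 0.25, adjusted p = 0.955) and 0.04 (SE 0.30, adjusted p = 0.943). Both genes lie close together on chromosome 5 (Cldn4 at chr5:134945119-134946934, Cldn3 at chr5:134986214-134987472). Cldn4 rests on 7 to 61 counts per library. Of 2 other claudins tested from a wider list, 0 were called with shRNF185.1 and 1 was lower with shRNF185.3. Among all genes 28.9% and 27.3% were called in these comparisons. Between the hairpins 1 of the 2 was called, lower with shRNF185.3.

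Cldn12, an atypical claudin and the most abundant per kilobase of the 5 tested, showed the opposite split. It ran from 49.4 to 71.5 CPM in control (median 60.2), from 34.7 to 40.6 with shRNF185.1 (median 37.1) and from 55.1 to 69.7 with shRNF185.3 (median 62.9). All libraries of shRNF185.1 lay below the other groups. The log2 fold change was -0.65 with shRNF185.1 (SE 0.08, adjusted p = 4.88e-06) and 0.09 with shRNF185.3 (SE 0.08, adjusted p = 0.405). Cldn1 and Cldn23 were not called. Epcam, an epithelial surface protein that binds claudins, summed to 22 counts in control, 6 with shRNF185.1 and 15 with shRNF185.3, and Cldn6 to 23, 16 and 5, levels too low for a comparison.

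Of the connexins, Gjb2 (connexin 26) fell with each hairpin, and Gja1 (connexin 43), the more abundant, showed small differences. Gjb2 (ENSMUSG00000046352, chr14:57098600-57104702) ran from 0.744 to 3.20 CPM in control (median 1.45), from 0.286 to 0.775 with shRNF185.1 (median 0.478) and from 0.311 to 0.578 with shRNF185.3 (median 0.366). Its 18 to 92 counts per control library spread widely, and 1 library of shRNF185.1 reached the control range. The log2 fold changes were -1.87 (SE 0.34, adjusted p = 0.000365) for shRNF185.1 and -2.14 (SE 0.35, adjusted p = 0.000149) for shRNF185.3. Gja1 ran from 97.4 to 153 CPM in control (median 125), from 95.7 to 118 with shRNF185.1 (median 102) and from 116 to 149.8 with shRNF185.3 (median 132). Control overlapped with both groups, and the log2 fold changes were -0.26 (SE 0.09, adjusted p = 0.0342) for shRNF185.1 and 0.10 (SE 0.09, adjusted p = 0.438) for shRNF185.3. With batch as a covariate the Gja1 difference with shRNF185.1 did not pass (-0.26, adjusted p = 0.0551).

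Of the 4 polarity genes 3 were tested, and with each hairpin 2 fell and 1 rose. Among all genes 28.9% were called with shRNF185.1 and 27.3% with shRNF185.3. Of 9 other polarity genes tested from a wider list, 2 rose with shRNF185.1 and 0 were called with shRNF185.3. Pard6b (ENSMUSG00000044641, chr2:168081004-168101203), the Par6 adaptor that joins Cdc42 to atypical protein kinase C, ran from 5.46 to 6.19 CPM in control (median 5.98), from 2.49 to 4.09 with shRNF185.1 (median 3.68) and from 2.24 to 3.16 with shRNF185.3 (median 2.87). All knockdown libraries lay below the control range. It fell by 0.72 (SE 0.11, adjusted p = 6.38e-05) and by 1.07 (SE 0.11, adjusted p = 9.41e-07) on the log2 scale. Patj, a scaffold of the Crumbs complex, ran from 14.8 to 20.6 CPM in control (median 17.1), from 11.2 to 15.6 (median 12.9) and from 10.9 to 15.0 (median 13.7), with 5 of 6 libraries of each hairpin below control. Its log2 fold changes were -0.38 (SE 0.10, adjusted p = 0.00717) for shRNF185.1 and -0.34 (SE 0.10, adjusted p = 0.0161) for shRNF185.3. Pard3, the Par3 scaffold, ran from 67.2 to 77.5 CPM in control (median 70.9), from 76.0 to 86.7 (median 81.5) and from 75.3 to 87.1 (median 80.7), overlapping slightly. Its log2 fold changes were 0.18 (SE 0.05, adjusted p = 0.00599) for shRNF185.1 and 0.17 (SE 0.05, adjusted p = 0.00888) for shRNF185.3.

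The hairpins were also compared directly, since both target the same gene and had like levels of Rnf185. Of the 35 genes, 10 were called, 5 higher and 5 lower with shRNF185.3, where 14.7% of all genes were called, 7.72% higher and 6.94% lower. Cldn4 (log2 fold change -1.85, SE 0.35, adjusted p = 0.00115), Cldn3 (-1.44, SE 0.28, adjusted p = 0.00131) and Ppl (-0.98, SE 0.09, adjusted p = 3.95e-07) were lower with shRNF185.3 than with shRNF185.1. Cdh3 (0.78, SE 0.15, adjusted p = 0.00126), Cldn12 (0.75, SE 0.08, adjusted p = 2.4e-06) and Jam3 (0.72, SE 0.13, adjusted p = 0.000685) were higher. Smaller differences passed for Pkp1 (0.36), Gja1 (0.35), Ctnna1 (-0.18) and Pard6b (-0.35). With batch as a covariate that of Pard6b did not pass (-0.35, adjusted p = 0.0749). The ranges did not overlap for 5 genes, namely Ppl, Ctnna1, Cldn3, Cldn4 and Cldn12, where 8.25% of all genes did not. Cdh1, Perp, Jup, Dsp and Gjb2 were not called between the hairpins, with 95% intervals of the log2 difference of -0.72 to 0.29, -0.33 to 0.44, -0.50 to 0.12, -1.35 to 0.35 and -1.04 to 0.50.

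**Figure D4:**
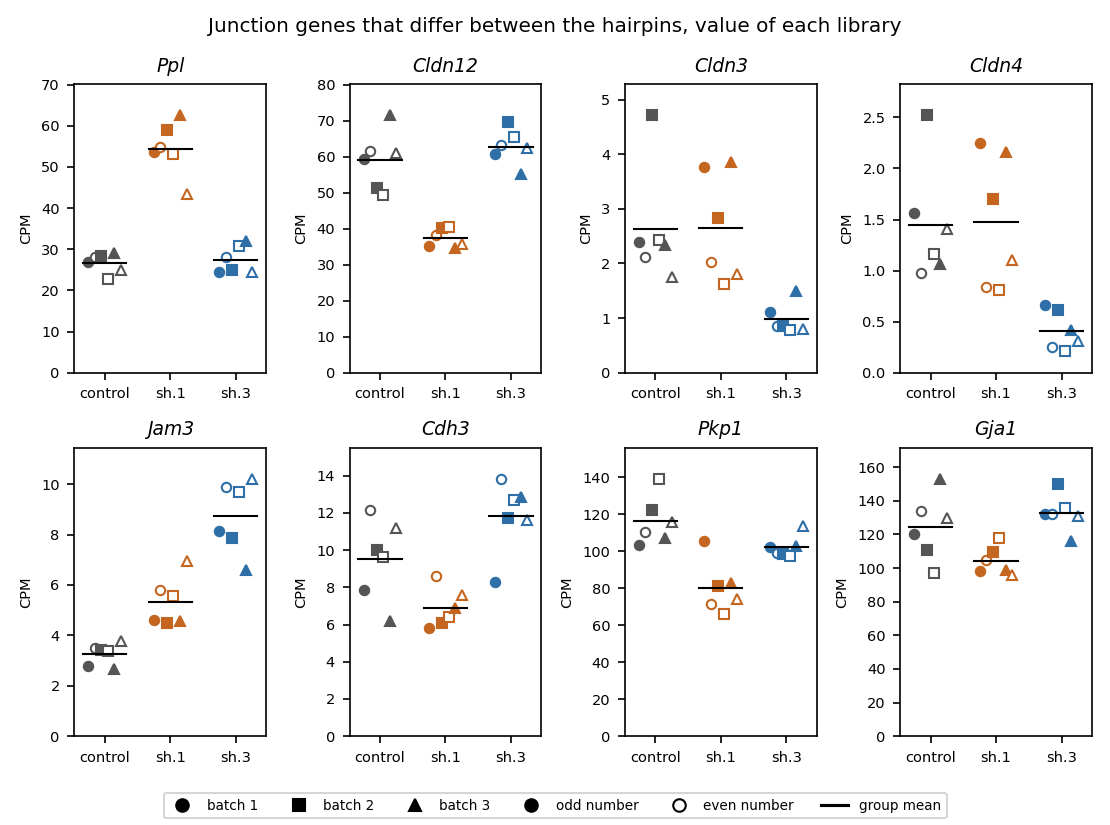
CPM of each library (y axis, from 0) for 8 genes that differed between the hairpins, by group (x axis, sh.1 for shRNF185.1 and sh.3 for shRNF185.3). Marker shape gives the batch, filled points have an odd number in the labels, open points an even number, and bars are group means. Ppl and Cldn12 set shRNF185.1 apart from both other groups, Cldn3 and Cldn4 set shRNF185.3 apart, and Jam3 steps up over all 3 groups.

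Both deposited tables are named for the batch adjustment ComBat-Seq, and whether it was given the groups is not given in the sources used here. Its part in the likeness of the batches and in the p-values was not tested. Of the 19 calls with shRNF185.1, 18 had the same sign in all 3 batches, the exception being Gja1 with 0.13 in batch 2. All 15 calls with shRNF185.3 and all 10 between the hairpins had the same sign in all 3. The calls were made on these same libraries, so like signs are in part set by that choice and are no separate support. Within batches 1, 2 and 3 the log2 ratio of Cdh1 was -1.90, -2.36 and -1.47 for shRNF185.1, and for shRNF185.3 it was -2.03, -2.43 and -1.91. That of Cgn with shRNF185.1 was uneven, at -1.52, -0.07 and -0.96. Without batch 1, Cgn with shRNF185.1 was no longer called (log2 fold change -0.52, adjusted p = 0.151), nor were Dsp (-1.35, adjusted p = 0.0808) and Ctnnb1 (-0.14, adjusted p = 0.16). Other calls with shRNF185.1 that ended, each keeping its sign, were those of Cdh3 (-0.46), Gja1 (-0.22) and Ctnna1 (0.09) without batch 1. Without batch 2 they were Cdh3 (-0.37), Patj (-0.21), Pard3 (0.13) and Ctnna1 (0.10), and without batch 3 Cgn (-0.77), Ctnnb1 (-0.15), Gja1 (-0.11), Pard3 (0.17) and Ctnna1 (0.10). With shRNF185.3, calls ended for Afdn (0.20) and Patj (-0.32) without batch 1, for Afdn (0.11), Patj (-0.29) and Pard3 (0.16) without batch 2, and for Pard3 (0.12) without batch 3. Between the hairpins 6 calls were left without batch 1, ending those of Cldn3 (-1.37), Gja1 (0.34), Pard6b (-0.28) and Ctnna1 (-0.18). Without batch 2 the calls of Cdh3 (0.69), Pkp1 (0.32) and Pard6b (-0.29) between the hairpins ended, and without batch 3 that of Pkp1 (0.30). Pard3 also lost both calls with an offset for GC content and length (0.09 and 0.11).

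**Figure D5:**
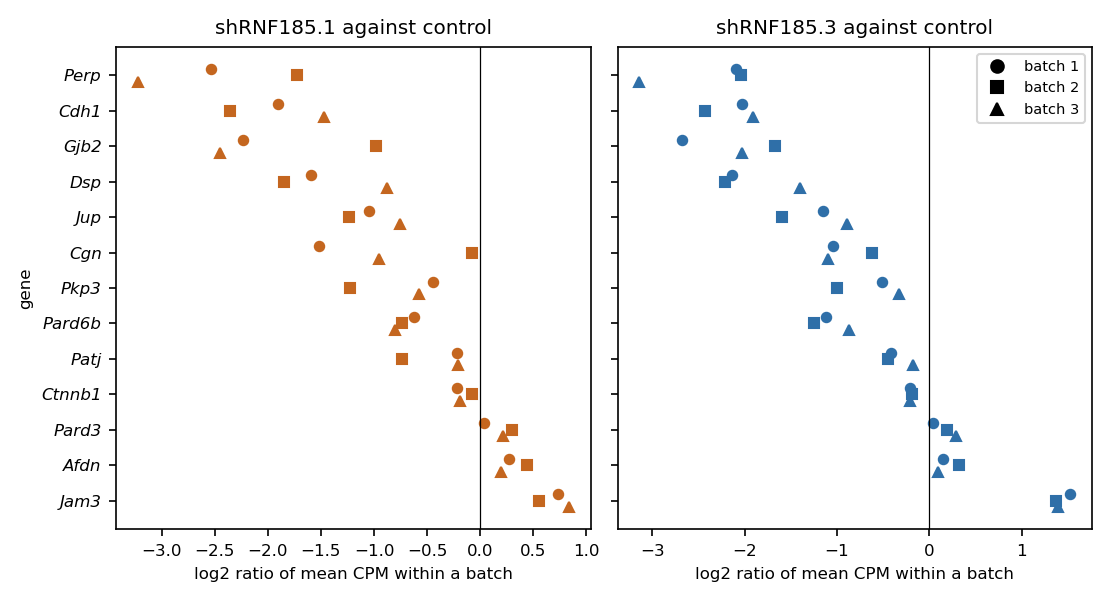
Log2 ratio of mean CPM within each batch (x axis) for 13 junction and polarity genes, with shRNF185.1 against control on the left and shRNF185.3 against control on the right. Marker shape gives the batch, each point comparing 2 libraries with 2. Perp, Cdh1, Gjb2, Dsp and Jup lie left of 0 in every batch and Jam3 right of it, while Cgn reaches -0.07 in batch 2 with shRNF185.1.

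A wider list of 82 other junction genes gave 35 that could be tested. With shRNF185.1 14 of these were called, 7 in each direction, and with shRNF185.3 12 were called, 4 higher and 8 lower. These are 40.0% and 34.3% of the 35, where 28.9% and 27.3% of all genes were called. Between the hairpins 8 were called (22.9%, against 14.7% of all genes), 2 higher and 6 lower with shRNF185.3. Cxadr, a tight junction adhesion receptor, fell from 81.1 ± 21.2 CPM to 48.8 ± 12.9 and 39.4 ± 7.14, at log2 fold changes of -0.73 (SE 0.18, adjusted p = 0.00489) for shRNF185.1 and -1.04 (SE 0.18, adjusted p = 0.000316) for shRNF185.3. Cadm1, an immunoglobulin-like adhesion molecule, fell from 81.9 ± 11.2 CPM to 54.0 ± 7.52 and 44.6 ± 4.5 (SD, n = 6). Pcdh1, a protocadherin, fell from 22.3 ± 3.09 CPM to 10.9 ± 2.94 and 15.5 ± 1.40. Panx1, a channel protein, fell by 0.17 and 0.56 on the log2 scale, whereas Magi3 (0.24 and 0.24), Marveld1 (0.18 and 0.21) and Vezt (0.16 and 0.15) rose. Without batch 1 the counts of calls were 7, 7 and 3 in the order shRNF185.1, shRNF185.3 and between the hairpins, and without batch 2 shRNF185.3 gave 6. The difference between the hairpins gave 5 without batch 2 and 5 without batch 3, and that of Pcdh1 was not called without any 1 of the batches (0.50, 0.48 and 0.52). With shRNF185.1, among the genes named here, the calls of Magi3 (0.16), Panx1 (-0.13) and Vezt (0.10) ended without batch 1, and those of Cxadr (-0.37), Marveld1 (0.11) and Vezt (0.16) without batch 2. Magi3 (0.22) and Panx1 (-0.15) also lost theirs without batch 3. With shRNF185.3 the calls of Pcdh1 (-0.46) and Marveld1 (0.15) ended without batch 2, that of Magi3 (0.20) without batch 3, and that of Vezt without any 1 of the batches (0.10, 0.18 and 0.15). Over all 18 libraries, batch as a covariate also ended the Vezt call with shRNF185.3 (adjusted p = 0.0710). An offset for GC content and length ended its calls with shRNF185.1 and shRNF185.3 (adjusted p = 0.180 and 0.154). The 7 other desmosomal cadherins had too few counts to test.

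Markers of cell state also differed between the groups, where 28.9% of all genes were called with shRNF185.1 and 27.3% with shRNF185.3. Of the 12 tested epithelial markers, 4 fell and 2 rose with each hairpin (50% called), and the summed level of all 20 was 1732 to 2576 CPM in control, 1062 to 1804 in shRNF185.1 libraries and 1230 to 1434 in shRNF185.3 libraries. The keratins Krt8 and Krt18 and the splicing regulator Esrp2 fell with both, while the transcription factors Elf3 and Trp63 rose. Of the 12 tested mesenchymal markers, 4 rose and 1 fell with shRNF185.1 (41.7% called), and 8 rose and 0 fell with shRNF185.3 (66.7%). The summed level of the mesenchymal list spanned 5064 to 6934 CPM in control, 5926 to 6914 in shRNF185.1 libraries and 6650 to 8214 in shRNF185.3 libraries. Most of this sum came from Vim and Fn1, and most of the epithelial sum from Krt8, Krt19 and Krt18. Snai2, a repressor that binds E-boxes, averaged 9.03 ± 0.862, 16.6 ± 1.31 and 21.1 ± 2.84 CPM (SD, n = 6), Zeb1 averaged 65.2 ± 5.93, 77.1 ± 5.42 and 77.8 ± 7.22 CPM, and all 3 of Snai2, Zeb1 and Zeb2 rose with each hairpin. Snai1 and Twist1, which also encode transcription factors, rose with shRNF185.3 (log2 fold changes 0.32 and 0.75) and were not called with shRNF185.1 (0.06 and -0.11). The 1 marker that fell with shRNF185.1 was Dcn, decorin, at -2.11 (SE 0.29), and with shRNF185.3 its value of -0.50 (SE 0.27) did not pass. Dcn, Snai1 and Twist1 are named after their values were seen. The part of these markers in the junction gene changes was not tested.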

How the data were processed

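Polyadenylated RNA of 18 libraries was sequenced with single-end reads of 75 bases from a strand-specific kit, per the labels' protocols. Reads were handled with cutadapt 2.3, STAR 2.7.0d and RSEM 1.3.1 on mm10, per the submitters' processing notes. The gene annotation and the strand setting of the counting are not given in the sources used here. The authors deposited estimated counts, and 0.466% of them are not whole. Both tables are named for ComBat-Seq, a batch adjustment, per the file names in the labels. The deposited CPM are a normalised signal, since the columns sum to between 969986 and 1026394. The planned count test was kept, on values rounded to whole numbers.

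Rounded counts were fitted in R 4.3.3 with edgeR 4.0.16 (quasi-likelihood F test, TMM scaling, filterByExpr with a minimum count of 10) over all 18 libraries, with group means as the only terms. P-values were adjusted over 14309 genes by the Benjamini-Hochberg method, and the threshold for a call was 0.05. Standard errors were derived from each F value, and 95% intervals are normal intervals from them, so both include the spread between libraries. The fit was tested on simulated data. Values per library are the deposited CPM. Floors cover counting error only, and no molecular identifiers are named in the labels. Symbols matched 99.1% of identifiers. Positions and exon lengths are those of GENCODE M21 on GRCm38, the assembly that mm10 names. No pair of libraries in a group agreed within sampling noise, with a chi-square per gene of 7.64 or more over 45 pairs.

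The member genes and the other lists were chosen with earlier results of these data known. Genes named with values are those called with each hairpin in the same direction, those that differed between the hairpins, and the core proteins of each junction. Among other junction genes, those called with each hairpin in the same direction with a mean count of at least 50 are named. Values of a few single genes are not reported here, though counts over the lists include them. The 13 alternatives fixed at the start covered scaling, test (DESeq2 1.42.0, limma 3.58.1), low-count filters, batch, the replicate number as a block, a GC and length offset, and each batch left out. A covariate for odd or even library numbers was added after seeing the data.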

Additional observations from a re-analysis of the deposited data

Results flagged for a closer look

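Among 72 groups of 6 libraries checked for a lone high or low value, 6 held one on the log2 CPM scale, where chance gives about 3.6. Pkp1 in shRNF185.3 replicate 6 was high at 6.83, with the nearest library at 6.68. Pkp3 in shRNF185.1 replicate 4 was low at -0.10 against 0.48. Cdh3 in shRNF185.3 replicate 1 was low at 3.05 against 3.54. Cldn3 in control replicate 3 was high at 2.24 against 1.28. Ocln in shRNF185.3 replicate 1 was high at 2.08 against 1.84. Pard6b in shRNF185.1 replicate 6 was low at 1.32 against 1.79.

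The hairpin groups differed, by the direct edgeR test of shRNF185.3 against shRNF185.1, for 10 genes. The log2 differences were -1.85 for Cldn4, -1.44 for Cldn3, -0.98 for Ppl, -0.35 for Pard6b and -0.18 for Ctnna1, and 0.78 for Cdh3, 0.75 for Cldn12, 0.72 for Jam3, 0.36 for Pkp1 and 0.35 for Gja1.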

How the results depend on the processing

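Of 63 named gene results past the threshold, 35 kept their call in each of the 14 alternatives that gave a value, 28 lost it in at least 1, and 0 changed direction. Among values past the threshold in neither fit, 31 changed sign. The count of called junction and polarity genes ranged from 13 to 20 with shRNF185.1, from 12 to 17 with shRNF185.3 and from 6 to 11 between the hairpins. Leaving out batch 1 gave 6 between the hairpins. Among the other junction genes, 7 were called with shRNF185.1 and 7 with shRNF185.3 without batch 1, 6 with shRNF185.3 without batch 2, and between the hairpins 3, 5 and 5 without batches 1, 2 and 3. Over all genes, 2207 were called with shRNF185.1 and 2120 with shRNF185.3 without batch 1, 2501 with shRNF185.3 without batch 3, and between the hairpins 753 and 1208 without batches 1 and 2. These fits use 12 libraries in place of 18. Ctnna1 with shRNF185.1, Vezt with shRNF185.3 and Pard6b between the hairpins each lost their call in 7 alternatives. Gja1 and Vezt with shRNF185.1 each lost theirs in 5. A minimum count of 50 left Dsp, Gjb2 and Cldn4 untested.

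When replicate numbers entered as a block, the counts of called junction and polarity genes were 17, 16 and 9 (shRNF185.1, shRNF185.3, between the hairpins), and those of all genes 3811, 3578 and 1976. Over 9771 genes, deviations from the group means correlated above 0.1 in 1, 1 and 2 of 6 same-numbered pairs. The mean correlation was -0.19, -0.04 and 0.20 in the same order, and 2 of 18 libraries correlated best with their own number. Same-numbered libraries share a batch, and the tables are named for a batch adjustment. These correlations therefore cannot show whether the numbers paired the libraries.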

Other observations

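Libraries with odd and even numbers in the labels differed in several junction genes within the 9 pairs of the same group and batch. The odd-numbered library was higher in all 9 pairs for 7 of the 35 tested genes, and the even-numbered one for 0. Over all genes tested, the odd-numbered library was higher in every pair for 767 genes and the even-numbered one for 724, together 10.4% of genes, against 20% of the junction and polarity genes. The median log2 ratio of odd over even was 1.35 for Dsp, 0.80 for Cldn3, 0.79 for Cdh1, 0.70 for Evpl and 0.34 for Cgn, and it was -0.32 for Jam3, which was higher in the even-numbered library in 8 of 9 pairs. With odd or even number as a covariate, added after seeing the data, 4 more differences of named genes passed. Cdh3 was higher with shRNF185.3 than in control (log2 fold change 0.33, adjusted p = 0.0434) and Ctnna1 lower (-0.08, adjusted p = 0.0301). Afdn (-0.12, adjusted p = 0.0491) and Cadm1 (-0.27, adjusted p = 0.0086) were lower with shRNF185.3 than with shRNF185.1. What the numbers stand for was not tested.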
